A study of Mus musculus with 8 samples.

Results

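The 8 enzymes of the pentose phosphate pathway were followed at the mRNA level in mouse CD8+ T cells cultured with or without GC7. They were chosen by name from textbook knowledge of the pathway, 4 for each branch, with earlier results of these data known. All 8 were found by symbol among the 55536 Ensembl genes of the count tables. The oxidative branch was represented by *G6pdx*, *H6pd*, *Pgls* and *Pgd*, and the non-oxidative branch by *Rpia*, *Rpe*, *Tkt* and *Taldo1*. All 8 passed the filter on low counts, which kept 11189 genes with more than 3 CPM (counts scaled to a common library size) in at least 4 libraries.

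OT-1 CD8+ T cells of the C57BL/6 strain were used, whose transgenic receptor recognises SIINFEKL, a peptide of ovalbumin. Per the study's methods, the donor mice of all its experiments were on a *Rag1*-knockout background. Cells from lymph nodes saw 100 nM of this peptide for 2 days, were washed, and then grew for a further 2 days in 20 ng/ml recombinant human IL-2. In this second period the cells of 4 libraries received 10 µM GC7 and those of the other 4 the acetic acid vehicle (Mock), so that peptide activation and IL-2 were common to both groups. GC7 inhibits deoxyhypusine synthase (DHPS), the enzyme that starts the hypusination of the translation factor eIF5a. The comparison therefore asks how mRNA levels differ when hypusination is inhibited. Because GC7 is a drug and not a deletion of the gene, effects through DHPS and through any other target of the drug cannot be told apart here. The study describes its data points as biological replicates, but the labels do not tie libraries to mice or cultures, so the p-values measure the spread between these libraries.

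The pentose phosphate pathway draws glucose 6-phosphate away from glycolysis. Its oxidative branch makes NADPH, the reducing agent for lipid and deoxynucleotide synthesis and for the glutathione and thioredoxin systems, and ends in ribulose 5-phosphate. Its non-oxidative branch makes ribose 5-phosphate for nucleotides and returns surplus carbon to glycolysis as fructose 6-phosphate and glyceraldehyde 3-phosphate. T cells that have been activated and are dividing call on both products.

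The mRNAs of the pathway's own NADPH-yielding dehydrogenases of the cytosol, *G6pdx* and *Pgd*, were lower in GC7-treated cells. *Pgd* fell 2.07-fold and *G6pdx* 1.59-fold, and of the non-oxidative enzymes *Tkt* fell 1.43-fold whereas *Rpe* rose 1.72-fold (n = 4 libraries per group). The other 4 mRNAs, *H6pd*, *Pgls*, *Rpia* and *Taldo1*, did not pass the test (edgeR FDR under 0.01). Thus 3 of 8 were called lower and 1 of 8 higher, where 23.5% of all tested genes were called lower, 23% higher and 46.6% in either direction. *Pgd* was the only one past a 2-fold change, which 5.31% of all tested genes passed downwards and 3.17% upwards. It was short of 2-fold without Mock replicate 2 (log2 fold change -0.99), without GC7 replicate 3 (-0.95), without both (-0.88) and with libraries scaled by their totals (-0.96). In bulk RNA, fewer cells of a type and less RNA per cell cannot be told apart, and the scaling used here takes most genes as unchanged.

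To show what lies just before the transcription starts of the 4 mRNAs that changed, bases upstream of the RefSeq start are printed 5′ to 3′ on the gene's strand (GRCm38.p6). Capitals mark matches, on either strand, to 1 of 4 motifs: the E-box (CACGTG), the core of the antioxidant response element (TGACNNNGC), the CCAAT box (CCAAT) and the GC box (GGGCGG). *G6pdx* is shown as the 30 bases around its antioxidant response element core (chrX:74428918-74428947, minus strand), since GENCODE places this window inside a first exon. *Pgd* is shown from chr4:149166708-149166855 (minus strand), *Tkt* from chr14:30548981-30549130 (plus strand) and *Rpe* from chr1:66700681-66700830 (plus strand).
G6pdx: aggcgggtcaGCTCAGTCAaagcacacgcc
Pgd: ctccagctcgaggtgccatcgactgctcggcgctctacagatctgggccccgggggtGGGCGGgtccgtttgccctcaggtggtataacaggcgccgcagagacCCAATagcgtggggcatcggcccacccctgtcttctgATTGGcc
Tkt: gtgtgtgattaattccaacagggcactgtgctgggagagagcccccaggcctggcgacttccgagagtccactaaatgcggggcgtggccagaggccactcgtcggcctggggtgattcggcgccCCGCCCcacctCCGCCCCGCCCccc
Rpe: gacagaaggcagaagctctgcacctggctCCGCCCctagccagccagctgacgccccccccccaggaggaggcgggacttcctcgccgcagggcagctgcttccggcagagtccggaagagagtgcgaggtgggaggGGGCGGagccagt

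In the 250 bases before the start, *Tkt* held 3 GC boxes, at -25, -14 and -9, with the last pair overlapping by 1 base, and *Rpe* held GC boxes at -121 and -13. *Pgd* held CCAAT boxes at -46 and -9 and a GC box at -93. *G6pdx* was the only one of the 8 with an antioxidant response element core, at -57, beside a GC box at -150, and this core was found in 10.2% of 32851 mouse windows of this length. A GC box was present in the windows of 7 of the 8 genes, all but *H6pd*, against 32.7% of all windows. These 7 windows held 54.4% (*Taldo1*) to 64.4% (*Pgls*) G or C, and that of *H6pd* 38.8%. The windows behind the 32.7% were not matched for base composition. The *H6pd* window (chr4:150003237-150003486) lies inside the annotated gene, which begins at 150009023 on the minus strand. The *Tkt* window also lies inside its annotated gene. These windows, like that of *G6pdx*, therefore do not precede the outermost annotated start. The windows of *Pgd*, *Rpia* and *Pgls* also reach into their annotated genes at the end nearest the RefSeq start. In *Pgd* this end holds its CCAAT boxes, and in *Rpia* its GC box. CCAAT boxes occurred before *H6pd*, *Pgd* and *Taldo1*, against 33.8% of all windows, and no E-box was found before any of the 8, against 6.02%. The genes that fell and the gene that rose therefore had GC boxes in common, and these matches are descriptions of letters in a window.

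The first reaction, from glucose 6-phosphate to 6-phosphogluconolactone with NADPH, is carried out in the cytosol by glucose-6-phosphate dehydrogenase. Its gene *G6pdx* (ENSMUSG00000031400, chrX:74409483-74429194, minus strand) gave 64.5, 58.3, 58.8 and 61.6 TMM-scaled CPM in Mock replicates 1 to 4 and 39.7, 40.6, 33.8 and 38.8 in GC7 replicates 1 to 4. Every GC7 library was below every Mock library. The mean went from 60.8 ± 2.86 to 38.2 ± 3.03 (SD, n = 4), a log2 fold change of -0.67 (SE 0.072, edgeR FDR 7.57e-06). *G6pdx* shares 418 of its 3080 exon bases with *Ikbkg* on the opposite strand, and the strand setting of the counting is not given in the sources used here. *Ikbkg* itself had 48.3 ± 4.47 CPM in Mock and 49.8 ± 0.6 in GC7 (log2 fold change 0.05, edgeR FDR 0.606).

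*Pgd* encodes 6-phosphogluconate dehydrogenase, the second NADPH-yielding step, which releases carbon dioxide and leaves ribulose 5-phosphate (ENSMUSG00000028961, chr4:149149991-149166771, minus strand). Its level was 161, 179, 144 and 156 CPM in Mock replicates 1 to 4 and 84.5, 86.4, 59.7 and 77.9 CPM in GC7 replicates 1 to 4. GC7 replicate 3 was the lowest library for both dehydrogenases, and even the highest GC7 value of *Pgd* was far below the lowest Mock value. From 160 ± 14.7 CPM the mean fell to 77.1 ± 12.2 CPM (log2 fold change -1.05, SE 0.108, edgeR FDR 5.19e-06). Among the 8 enzymes this change had the greatest size.

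The reaction between these dehydrogenases, hydrolysis of the lactone, belongs to *Pgls* (ENSMUSG00000031807, chr8:71592176-71601092, plus strand). *Pgls* was at 74.6, 108, 83.9 and 78.8 CPM in Mock and 94.9, 96.3, 106 and 108 CPM in GC7. Mock replicate 2 stood about as high as the highest GC7 library, so the groups overlapped, while the other 3 Mock libraries lay below all GC7 libraries. With all libraries the means were 86.4 ± 15.1 and 101 ± 6.66 CPM, and the difference did not pass the test (log2 fold change 0.23, 95% interval 0.00 to 0.46, edgeR FDR 0.0784). Without Mock replicate 2 it was 0.36 with an edgeR FDR of 0.000341, so that 1 library decided the call. *Pgls* also shares 776 of 3770 exon bases with *Fam129c* on the same strand, which was present at only 3.29 ± 0.745 CPM in Mock and 4.91 ± 0.987 CPM in GC7.

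*H6pd* encodes the endoplasmic reticulum enzyme that joins the dehydrogenase and lactonase activities in 1 protein (ENSMUSG00000028980, chr4:149979475-150009023, minus strand). Mock libraries gave 23.7, 23.6, 24.0 and 27.2 CPM and GC7 libraries 23.1, 22.7, 17.4 and 20.3 CPM. The GC7 libraries lay below the Mock libraries without overlap, but the gap between the nearest libraries was small. Its change of -0.24 on the log2 scale (95% interval -0.45 to -0.03) did not pass the test across all genes (edgeR FDR 0.0505).

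**Figure D1:**
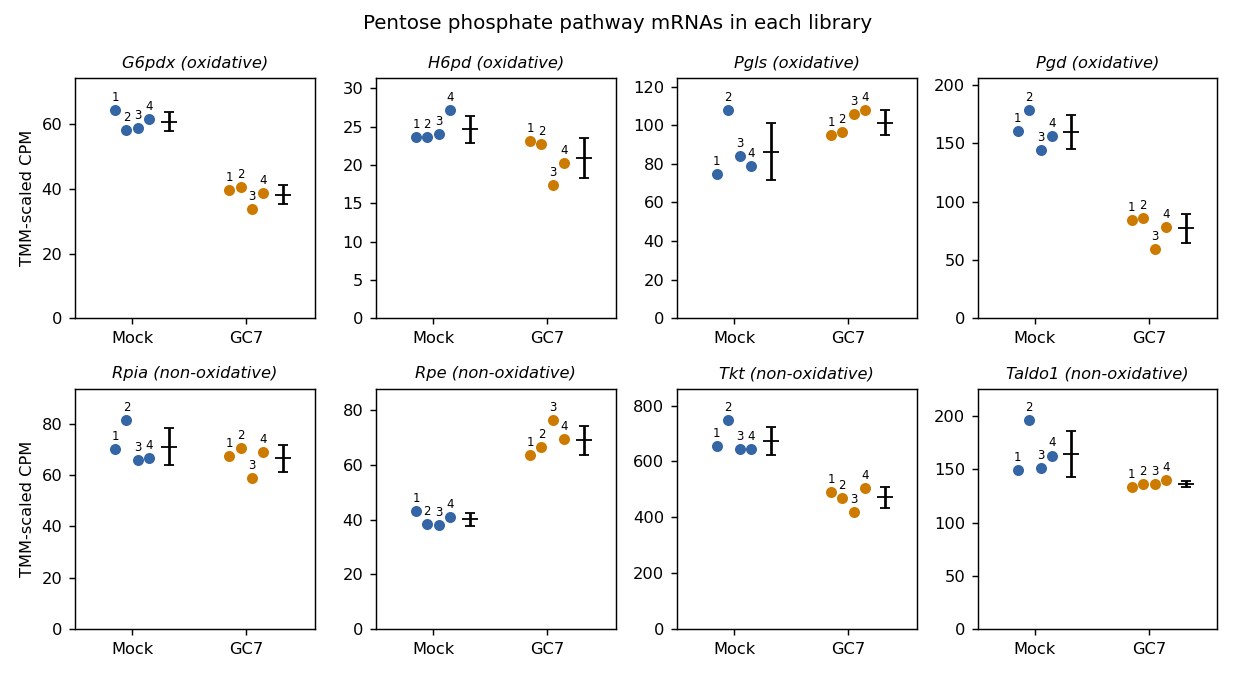
TMM-scaled CPM (vertical axes, from 0) of the 8 pathway mRNAs in each of the 4 Mock and 4 GC7 libraries, with replicate numbers at the points and the mean ± SD as black marks. All GC7 points lie below all Mock points for *G6pdx*, *H6pd*, *Pgd*, *Tkt* and *Taldo1* and above them for *Rpe*, whereas *Pgls* and *Rpia* overlap.

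Ribulose 5-phosphate, the product of *Pgd*, is the branch point of the non-oxidative part. Ribulose-phosphate 3-epimerase, encoded by *Rpe* (ENSMUSG00000026005, chr1:66700831-66719805, plus strand), turns it into xylulose 5-phosphate. *Rpe* was at 43.0, 38.3, 38.0 and 41.0 CPM in Mock replicates 1 to 4 and at 63.7, 66.7, 76.3 and 69.4 CPM in GC7 replicates 1 to 4. All 4 GC7 libraries were above all 4 Mock libraries, and GC7 replicate 3, the lowest for the dehydrogenases, was the highest here. The mean rose from 40.1 ± 2.38 to 69.0 ± 5.40 CPM (log2 fold change 0.79, SE 0.0734, edgeR FDR 2.23e-06), against the direction of the other 3 calls. *Rpe* shares 558 of its 3113 exon bases with *Kansl1l* on the opposite strand, which was expressed at 8.59 ± 1.72 CPM in Mock and 7.81 ± 0.965 CPM in GC7 and did not pass the test (edgeR FDR 0.464).

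The isomerase *Rpia*, which converts ribulose 5-phosphate to ribose 5-phosphate, lies at chr6:70765720-70792232 on the minus strand (ENSMUSG00000053604). Its Mock values were 70.3, 81.3, 65.9 and 66.8 CPM and its GC7 values 67.5, 70.4, 59.0 and 69.1 CPM. The groups overlapped throughout, with Mock replicate 2 the highest and GC7 replicate 3 the lowest library. A log2 fold change of -0.10 (95% interval -0.27 to 0.08, edgeR FDR 0.332) did not pass the test, and its sign turned under other settings.

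Transketolase, encoded by *Tkt* (ENSMUSG00000021957, chr14:30548359-30574720, plus strand), is a thiamine-dependent enzyme that moves carbon units between sugar phosphates and links the pathway to glycolysis. Its level was 657, 747, 645 and 643 CPM in Mock replicates 1 to 4 and 492, 469, 419 and 506 CPM in GC7 replicates 1 to 4. *Tkt* was lower in every GC7 library than in any Mock library, and Mock replicate 2 stood above the other 3 of its group. The mean fell from 673 ± 49.6 to 472 ± 38.4 CPM (log2 fold change -0.51, SE 0.078, edgeR FDR 0.000126).

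*Taldo1* encodes transaldolase, which works beside transketolase in returning carbon to fructose 6-phosphate (ENSMUSG00000025503, chr7:141392199-141402968, plus strand). Its values were 149, 196, 151 and 163 CPM in Mock and 133, 136, 136 and 140 CPM in GC7. The GC7 libraries were closely spaced and below all Mock libraries, among which replicate 2 was again the highest. At 165 ± 21.5 against 136 ± 2.92 CPM, the log2 fold change of -0.27 (SE 0.0825) just missed the threshold (edgeR FDR 0.0126). The call depended on the processing, since *Taldo1* passed with DESeq2 (-0.28, FDR 0.00486), without Mock replicate 1 (-0.32, edgeR FDR 0.00852) and without Mock replicate 2 (-0.18, edgeR FDR 0.00616). Over the 8 enzymes, groups did not overlap for 5 lower and 1 higher mRNA, against 27.5% of all tested genes lower, 28.1% higher and 55.6% in either direction.

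**Figure D2:**
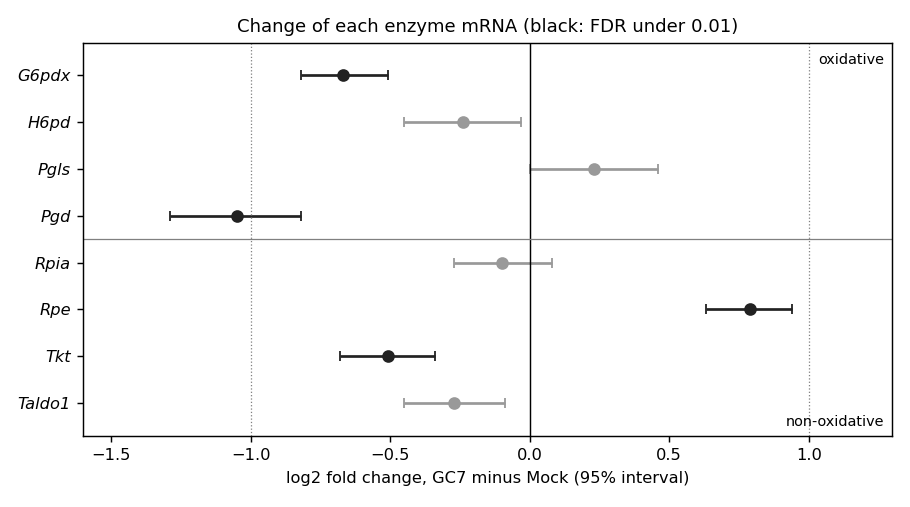
Log2 fold change of GC7 minus Mock (horizontal axis) with 95% intervals for the 4 oxidative enzymes above the line and the 4 non-oxidative enzymes under it, in black where the edgeR FDR was under 0.01 and with dotted lines at a 2-fold change. *Pgd* at -1.05, *G6pdx* at -0.67 and *Tkt* at -0.51 lie to the left of 0 and *Rpe* at 0.79 to the right.

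By branch, the oxidative list had 2 of 4 mRNAs called lower and none higher, with a median log2 fold change of -0.45. The non-oxidative list had 1 of 4 lower and 1 of 4 higher, with a median of -0.18. Each branch thus had 2 of 4 mRNAs called, close to the 46.6% called over all tested genes. The median was -0.25 over the 8 enzymes and 0.02 over all tested genes. Summed over its 4 mRNAs, the oxidative branch was at 323, 370, 311 and 323 CPM in Mock and 242, 246, 217 and 245 CPM in GC7, a ratio of the means of 0.716. The non-oxidative sum, most of which is *Tkt*, was at 919, 1060, 900 and 914 CPM in Mock and 756, 742, 690 and 785 CPM in GC7, a ratio of 0.783. Neither sum overlapped between the groups. With these branch sums the 8 mRNAs made up 1280 ± 102 CPM of the Mock libraries and 981 ± 51.9 CPM of the GC7 libraries.

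Levels of different genes were compared as CPM per kilobase of exon. Exon length was taken as the union of all annotated exons of a gene, over all its transcripts. The order between genes therefore depends on that annotation. In Mock, *Tkt* was the highest at 91.5 ± 6.74 per kilobase and *Taldo1* next at 75.8 ± 9.91, and their ranges overlapped. *Pgd* (24.8 ± 2.28), *Pgls* (22.9 ± 4.01) and *G6pdx* (19.7 ± 0.928) formed a second tier in which each overlapped the next. *Rpia* (13.3 ± 1.32) and *Rpe* (12.9 ± 0.763) overlapped each other, and *H6pd* was the lowest at 4.71 ± 0.33, apart from all others.

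In GC7-treated cells the top and the bottom of this order stayed with *Tkt* (64.1 ± 5.22 per kilobase), *Taldo1* (62.8 ± 1.34) and *H6pd* (3.99 ± 0.5), and the ranges of *Tkt* and *Taldo1* again overlapped. The middle was rearranged. *Pgls* now followed *Taldo1* at 26.9 ± 1.77 and *Rpe* came next at 22.2 ± 1.74, each without overlap with its neighbours in the order. *G6pdx* (12.4 ± 0.983), *Rpia* (12.4 ± 0.958) and *Pgd* (12.0 ± 1.89) came together, overlapping as neighbours. *Pgd* was thereby at rank 3 in Mock and 7 in GC7, and *Rpe* at rank 7 in Mock and 4 in GC7.

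**Figure D3:**
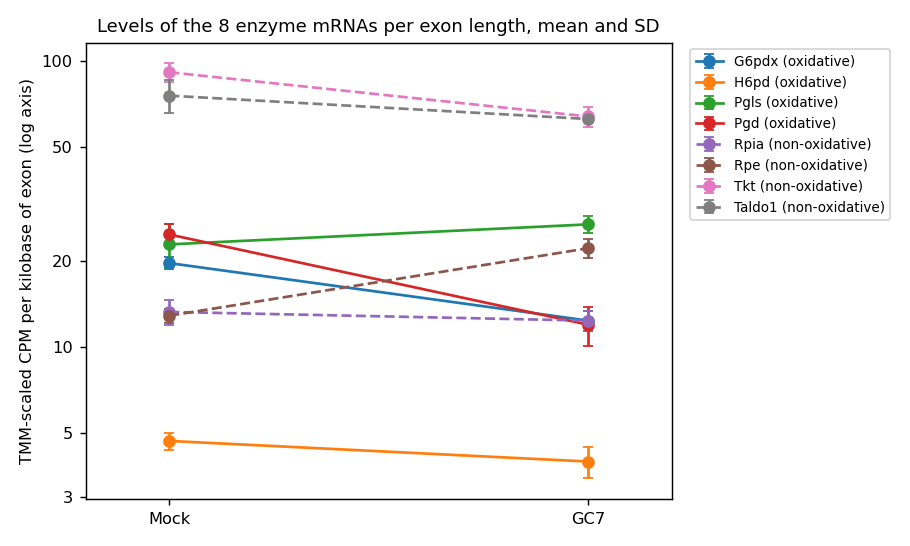
Mean level ± SD of each enzyme mRNA as TMM-scaled CPM per kilobase of exon (vertical log axis) in Mock and GC7, with solid lines for oxidative and dashed lines for non-oxidative enzymes. The line of *Pgd* drops from 24.8 to 12.0 and crosses the line of *Rpe*, which climbs from 12.9 to 22.2.

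Ratios of 2 mRNAs within a library do not depend on how libraries are scaled, and 3 were tested with two-sided exact permutation tests adjusted over the 3. *Rpia* and *Rpe* compete for ribulose 5-phosphate. The log2 ratio of *Rpia* to *Rpe* was 0.71, 1.09, 0.79 and 0.70 in Mock and 0.08, 0.08, -0.37 and -0.01 in GC7. All Mock libraries had more *Rpia* than *Rpe* counts, whereas the GC7 libraries were spread around equal counts. Counts do not allow for length, and *Rpia* has 5359 exon bases against 3113 for *Rpe*. Per kilobase of exon, *Rpia* and *Rpe* were at 13.3 and 12.9 in Mock and at 12.4 and 22.2 in GC7. The difference in log2 ratio between the groups was -0.88 (exact permutation p = 0.0286, adjusted p = 0.0429), from a mean count ratio of 1.78 to 0.971.

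*H6pd* and *G6pdx* are the reticulum and the cytosolic form of the first step. Their log2 ratio was -1.44, -1.30, -1.29 and -1.18 in Mock and -0.78, -0.84, -0.95 and -0.93 in GC7, without overlap. *H6pd* thus rose relative to *G6pdx* by 0.43 (exact permutation p = 0.0286, adjusted p = 0.0429), although neither mRNA was higher in GC7. A p of 0.0286 is the smallest that 4 against 4 libraries allow.

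*G6pdx* and *Gpi1* both take glucose 6-phosphate, *Gpi1* encoding the glycolytic isomerase. *Gpi1* fell from 1690 ± 166 to 942 ± 43.1 CPM (log2 fold change -0.84, edgeR FDR 2.49e-06), and its near-identical pseudogene *Gm1840* had 76 to 201 counts per library. The log2 ratio of *G6pdx* to *Gpi1* was -4.60, -5.05, -4.81 and -4.70 in Mock and -4.56, -4.56, -4.70 and -4.66 in GC7. The groups overlapped, and a difference of 0.17 was not detectable with these libraries (exact permutation p = 0.143, adjusted p = 0.143). Without Mock replicate 2 it was 0.08.

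**Figure D4:**
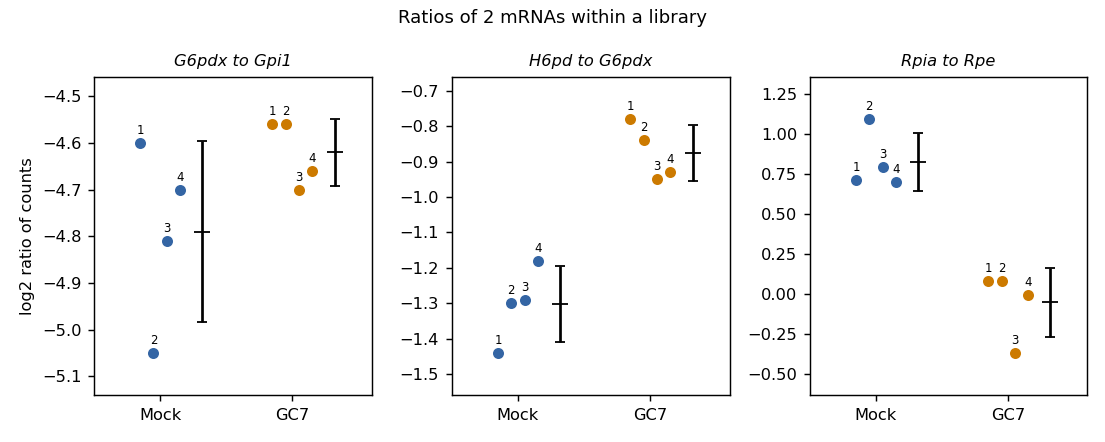
Log2 ratio of the counts of 2 mRNAs within each library (vertical axes) for *G6pdx* to *Gpi1*, *H6pd* to *G6pdx* and *Rpia* to *Rpe*, with replicate numbers at the points and the mean ± SD as black marks. Mock and GC7 do not overlap for *H6pd* to *G6pdx* (difference 0.43) and *Rpia* to *Rpe* (difference -0.88), and overlap for *G6pdx* to *Gpi1*.

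Close relatives of the pathway genes were barely read. *G6pd2*, an autosomal copy that matched *G6pdx* at 93.2% identity over 2332 bases, had at most 1 count in a library. *Tktl1* had 0 to 6 counts and *Tktl2* none in any library. For *Taldo1*, the only near-identical copy was the processed pseudogene *Gm17823*, with 0 to 6 counts. None of these 4 relatives passed the filter.

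Beyond the pathway, the ribose 5-phosphate made by *Rpia* is activated to phosphoribosyl pyrophosphate by the synthetases *Prps1* and *Prps2* and their associated proteins *Prpsap1* and *Prpsap2*. In the list of 11 genes that handle ribose or pentose phosphates, 10 were tested, of which 2 were lower and 3 higher (median log2 fold change 0.06), so that 5 of 10 were called against 46.6% of all tested genes. *Prps2* rose from 67.7 ± 5.60 to 116 ± 4.56 CPM (0.77, edgeR FDR 1.53e-06). *Dera*, the aldolase that splits deoxyribose 5-phosphate, fell from 59.6 ± 1.81 to 33.7 ± 0.338 CPM (-0.82, edgeR FDR 1.8e-07). *Rbks*, ribokinase, had -0.68 without passing the test (edgeR FDR 0.0179), but passed with DESeq2 (FDR 0.00849). The other calls were *Prpsap2* (0.42) and *Prps1* (0.28) among the higher and *Pgm2* (-0.31) among the lower. *Prps1* is uncertain because *Prps1l3*, 93.2% identical over 1478 bases, was also expressed, and *Pgm2* lost its call when libraries were scaled by their totals.

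Of 15 glycolytic genes that share intermediates with the pathway, 11 were tested and 10 were called lower, with a median log2 fold change of -1.16, where 23.5% of all tested genes were called lower. The fall was more than 2-fold for 6 of the 11, against 5.31% of all tested genes. *Aldoc*, an aldolase, fell from 295 ± 23.2 to 31.6 ± 3.37 CPM (-3.23, edgeR FDR 7.29e-11). *Tpi1*, triosephosphate isomerase, fell by 1.46 and *Pfkl*, a phosphofructokinase, by 1.37 on the log2 scale. *G6pc3*, a glucose-6-phosphatase, was the tested gene of this list that was not called (-0.19, edgeR FDR 0.0258). *Gapdh*, called lower (-0.84), is uncertain because near-identical pseudogenes also held counts, such as *Gm12671* with 19741 to 54451 per library. The medians of the oxidative (-0.45) and non-oxidative (-0.18) enzymes were nearer 0 than that of the glycolytic list.

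Genes listed as other routes to NADPH were split. Of the 13 listed as suppliers of NADPH or NADP, 9 were tested. Of these, 3 were lower and 4 higher (median 0.36), against 23.5% lower and 23% higher over all tested genes. Which coenzyme each listed enzyme used in these cells was not measured. *Me2*, a mitochondrial malic enzyme, fell from 305 ± 5.05 to 93.0 ± 9.72 CPM (-1.71, edgeR FDR 3.7e-09), and *Idh1*, the cytosolic isocitrate dehydrogenase, from 24.5 ± 1.88 to 7.58 ± 0.935 CPM (-1.70, edgeR FDR 4.86e-08). *Aldh1l2*, which makes NADPH from formyl-tetrahydrofolate in mitochondria, rose from 5.68 ± 2.09 to 16.8 ± 2.55 CPM (1.58, edgeR FDR 8.99e-05), but its exons overlap those of *D10Wsu102e*. The folate enzymes *Mthfd1* (0.68) and *Mthfd2* (0.65) and the NAD kinase *Nadk* (0.45) were the other genes called higher, and the mitochondrial kinase *Nadk2* (-0.38) was the remaining gene called lower. *Nadk2* lost its call under scaling by library totals.

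Among 12 users of NADPH, all tested, 5 were lower and 3 higher (median -0.36), against the same 23.5% and 23%. *Dhcr7*, an enzyme of sterol synthesis, fell (-0.91). *Nqo1*, a quinone reductase, rose from 3.03 ± 0.58 to 7.10 ± 1.14 CPM (1.23, edgeR FDR 5.15e-05). *Txnrd1*, a thioredoxin reductase, also rose (0.50). The other thioredoxin reductases, *Txnrd2* and *Txnrd3*, went the other way, both at -0.36, without passing the test (edgeR FDR 0.011 and 0.11). *Txnrd2* passed with DESeq2 (FDR 0.00447). The counts moved with the processing, to 2 higher with RLE factors, 4 lower with library totals and 6 lower with DESeq2.

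Of 9 regulators known to act on the pathway or on its genes, 3 were lower and 3 higher (median 0.20), again beside 23.5% and 23% of all tested genes, and 4 were higher with library totals. *Myc* fell from 237 ± 15.0 to 131 ± 30.8 CPM (-0.85, edgeR FDR 0.000267) and *Srebf1*, a transcription factor of lipid synthesis, from 199 ± 6.52 to 122 ± 10.3 CPM (-0.70, edgeR FDR 3.26e-06). *Nfe2l2*, whose product binds antioxidant response elements, rose from 16.5 ± 0.992 to 27.1 ± 1.11 CPM (0.72, edgeR FDR 5.18e-06). *Keap1*, which holds that factor in check, fell (-0.40), although *Gm16754* lies antisense to it. *Tigar*, a phosphatase known to favour the pathway over glycolysis, rose (0.60), as did *Trp53* (0.37). Whether the levels of these regulators are linked to those of *G6pdx* and *Pgd* was not tested.

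**Figure D5:**
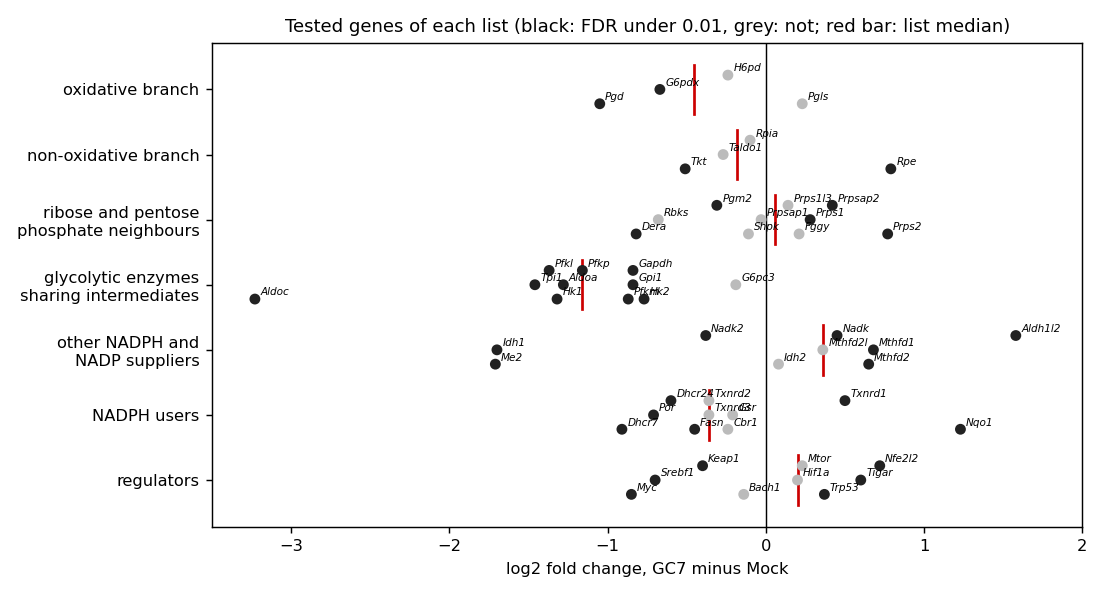
Log2 fold change of GC7 minus Mock (horizontal axis) for the tested genes of the 2 branches and of 5 neighbouring lists, in black where the edgeR FDR was under 0.01, with the median of each whole list as a red bar (2 NADPH users are not drawn). The glycolytic list lies wholly to the left of 0 (median -1.16). The medians of the pathway's own branches (-0.45 and -0.18) lie between its median and that of the NADPH suppliers (0.36). The points of these lists overlap.

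To find genes with the most similar pattern, the log2 CPM of each gene minus its Mock mean was compared over the 8 libraries for 10191 protein-coding genes. For *G6pdx* the smallest root mean square differences were those of *Lcp1* (0.0338), *Elk3* (0.0435) and *Inpp5d* (0.0455). For *Tkt* the smallest were those of *Hcls1* (0.0223) and *Csk* (0.0334). *G6pdx* and *Tkt* differed from each other by 0.15, and were not among each other's nearest genes. *Tkt* was at rank 397 for *G6pdx*, and *G6pdx* at rank 723 for *Tkt*.

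Across the series, total counts ranged from 17528776 in GC7 replicate 3 to 25284730 in Mock replicate 2, so that 3 CPM correspond to 52.6 to 75.9 counts. Of the tested genes, 2635 were called lower and 2579 higher, a share of 50.5% lower among all calls. This share was 38.1% (2056 lower and 3346 higher) when libraries were scaled by their totals, which left the calls of the 8 pathway enzymes as they were. Markers of CD8+ T cells were abundant and summed to 6740 to 8110 CPM in Mock and 4580 to 6140 CPM in GC7. Of these 8 markers, 5 were called lower and 1, *Cd8a*, higher, against 23.5% and 23% of all tested genes. B cell markers summed to 7.02 to 10.1 CPM in Mock and 4.63 to 5.93 CPM in GC7, nearly all of it *Cd79b*, with *Ms4a1* at 0. CD4 T cell, myeloid, NK cell and erythroid markers each summed to at most 1.40 CPM in any library. The 3 genes listed as stromal summed to 52.2 to 56.9 CPM in Mock and 30.4 to 32.5 CPM in GC7, almost entirely *Pecam1*. *Col1a1* and *Pdgfrb* of this list had means of only 0.629 and 0.646 CPM in Mock and 0.286 and 0.255 CPM in GC7. The sum is therefore that of *Pecam1* and not of stromal markers as a set. The part of these marker levels in the values of *G6pdx*, *Pgd*, *Tkt* and *Rpe* was not tested.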

How the data were processed

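The authors deposited 1 table of raw counts per library, for 55536 Ensembl genes, neither normalised nor pooled. Per the labels and the study's methods, the authors trimmed reads with Cutadapt, aligned them to GRCm38 with STAR and counted them with featureCounts on Ensembl release 96; the strand setting and the treatment of reads with several matches are not given in the sources used here. All identifiers matched GENCODE vM21, which gave symbols, positions and exon lengths.

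Counts were tested with edgeR (version 4.0.16, R version 4.3.3): TMM factors, genes above 3 CPM in at least 4 of 8 libraries, a model with the group alone, the quasi-likelihood F test, and FDR by Benjamini-Hochberg over the 11189 genes tested, with calls at an FDR under 0.01. Log2 CPM values of single libraries and the ratios used a prior count of 2. The script was checked on simulated counts. Replicate libraries differed by more than counting noise (lowest chi-square per degree of freedom 2.6). Alternatives were RLE factors, library totals, DESeq2 (version 1.42.0), limma-voom (limma version 3.58.1), no filter, filterByExpr, a replicate block, each library left out in turn, a prior of 0.5 counts for the ratios and, chosen after seeing the data, Mock replicate 2 and GC7 replicate 3 both left out. Copies were sought with BLAST (version 2.17.0; at least 200 bases at 90% identity). Upstream sequences came from RefSeq, where all 8 enzymes matched.

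From each neighbouring list the 3 tested genes with the greatest absolute change, and *Gpi1* for its ratio, were named by rule, except for genes that are not reported here. Other genes named there (*Prps1*, *Prpsap2*, *Pgm2*, *G6pc3*, *Gapdh*, *Mthfd1*, *Mthfd2*, *Nadk*, *Nadk2*, *Txnrd1*, *Keap1*, *Tigar* and *Trp53*) were chosen with their values in view. So were *Txnrd2* and *Txnrd3*. The enzymes and lists were chosen with earlier results of these data known. Python (version 3.11.15), numpy (2.4.6), pandas (2.3.3), scipy (1.17.1) and matplotlib (3.10.9) were used for the rest.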

Additional observations from a re-analysis of the deposited data

Results flagged for a closer look

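Among 22 groups of 4 values examined for a library far from the others (by Dixon's ratio, which divides the distance to the closest library by the range), 2 stood out, where chance gives about 1 in 20, or 1.1. *H6pd* was higher in Mock replicate 4, at 27.2 CPM, than in the other Mock libraries, at 23.6 to 24.0 CPM (ratio 0.874). *Tkt* was higher in Mock replicate 2, at 747 CPM, than in the others, at 643 to 657 CPM (ratio 0.868). Without any 1 library the log2 fold change ran from -0.29 to -0.17 for *H6pd*, which was never called, and from -0.55 to -0.46 for *Tkt*, which was always called.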

How the results depend on the processing

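The calls of *G6pdx*, *Pgd*, *Tkt* and *Rpe* held under all 16 alternatives, with log2 fold changes of -0.70 to -0.57, -1.11 to -0.88, -0.55 to -0.40 and 0.72 to 0.88. Of 128 results for the 8 enzymes, 119 kept their direction and side of the threshold. *Rpia* turned to 0.000397 with library totals and to 0.03 with Mock replicate 2 and GC7 replicate 3 both left out. *Taldo1* was called without the filter, with DESeq2 and with both libraries left out, so that 2 non-oxidative enzymes were lower, and leaving out 1 library gave 1 to 2. *Pgls* was called (0.36 without Mock replicate 2, 0.34 with both left out), so that 1 oxidative enzyme was higher, and leaving out 1 library gave 0 to 1. The causes were not tested. The numbers of genes called ranged from 2056 to 3382 lower and from 2102 to 3346 higher.

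Same-numbered libraries did not deviate together (correlations -0.183 to 0.272), so the numbers were not taken as pairs. In a fit that took the replicate number as a block, 2485 genes were lower and 2382 higher and no enzyme changed its call. The ratios kept differences of 0.43 (*H6pd* to *G6pdx*) and -0.88 (*Rpia* to *Rpe*) under this block, but 4 pairs cannot give an exact p under 0.125. Leaving out 1 library, they ran from 0.38 to 0.47 and from -0.92 to -0.77, where 3 against 4 libraries cannot give an exact p under 0.0571. The ratio of *G6pdx* to *Gpi1* ran from 0.08 to 0.23. *Tktl1*, *Tktl2* and *G6pd2* had too few counts to test, and low expression and limited depth cannot be told apart there.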
